A study of Rattus norvegicus with 18 samples.

Results

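The data described here are 6 expression arrays of primary rat cortical neuron cultures that carried a short hairpin RNA (shRNA) against CHD5, 3 harvested at day 5 of culture and 3 at day 9. They were taken from the 18 arrays of a time course by shRNA and day alone, with no measured value in the choice. The cultures were started from the cortex of E18 rat embryos and infected with lentivirus on day 1, with virus left in the medium for 6 h. The CHD5 shRNA cultures received 1 virus made from the pLKO.1 vector, and the control cultures received a scramble shRNA in a lentiviral vector, so every culture of the series was infected and none was left without virus. Both kinds of culture were harvested at days 5, 9 and 12 in triplicate, and the question addressed by the 6 arrays is which changes of an ageing neuron culture proceed while CHD5 is depleted. All arrays were Illumina RatRef-12 BeadChips, which give each probe a fluorescence signal and a detection p-value. No probe was matched to Chd5, so the depletion itself was not analysed here. The samples are lettered a to c, and the labels do not say that the letters stand for separate neuron preparations. The p-values therefore measure the spread between these samples, which may be technical.

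CHD5 is a chromodomain helicase of the nucleosome remodelling and deacetylase (NuRD) family and is found mainly in neurons. A cortical culture started from late embryos is dominated by postmitotic neurons that grow axons and dendrites, form synapses and shift their channels, receptors and chloride transport towards the mature state. The same dissection carries progenitors and young glia, and astrocytes and oligodendrocyte precursors are made mainly after neurons, so glial messages commonly build up as such cultures age. An array of a whole culture reads the sum over all of these cells, and fewer cells of a type and less RNA per cell cannot be told apart in it.

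The mean signal per array was 508 to 688 at day 5 and 400.2 to 451 at day 9, and 8360 to 9263 probes were detected per array at a detection p-value of at most 0.02. Between arrays of the same day the log2 signals correlated at 0.990 to 0.994 (day 5) and 0.995 to 0.997 (day 9), and between days at 0.976 to 0.986. Neuronal markers were widely detected: all 15 pan-neuronal markers with a probe were detected on at least 1 array and 14 of them on all 6. Glial markers were present too, with 17 of 23 astrocyte and 5 of 14 oligodendrocyte lineage markers detected on all 6. Of 14 microglia and macrophage markers 12 were detected on no array, and of 10 endothelial and pericyte markers 8 were detected on no array. All 7 markers of proliferating cells were detected on all 6 arrays. The slide and the handling batch of the arrays are not given in the sources used here, so day and any batch that goes with it cannot be told apart. Among the control arrays used for comparison, day 9 replicate b stood apart: its mean signal was 135 and 7047 probes were detected on it. Values that rest on it are given with and without it, other than those of a fit that weights each array.

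The culture changed broadly between days 5 and 9. Of 22523 probes on the array, 9744 were detected on at least 1 of the 6 arrays and were kept. A limma fit called 2771 of them (28.4%) at a Benjamini-Hochberg adjusted p of at most 0.05, 1239 (12.7%) higher and 1532 (15.7%) lower at day 9. At an unadjusted p under 0.05 the count was 3938. Most of the changes were small: the median absolute difference of the called probes was 0.42 on the log2 scale, 75 were at least 2-fold higher and 18 at least 2-fold lower. Of the 10 named genes with the largest rises 6 are astrocyte genes, and of the 10 with the largest falls 6 are immediate early genes or their feedback phosphatases. The 3 values of one day lay entirely above the 3 of the other for 2675 of the 2771 called probes, against 44.9% of all kept probes. With 3 arrays against 3, an exact permutation test of a single probe cannot go below 0.1 (two-sided), so the calls rest on limma's variance estimate pooled over all probes. Leaving out the array of day 9 replicate c lowered the count to 1794.

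**Figure D1:**
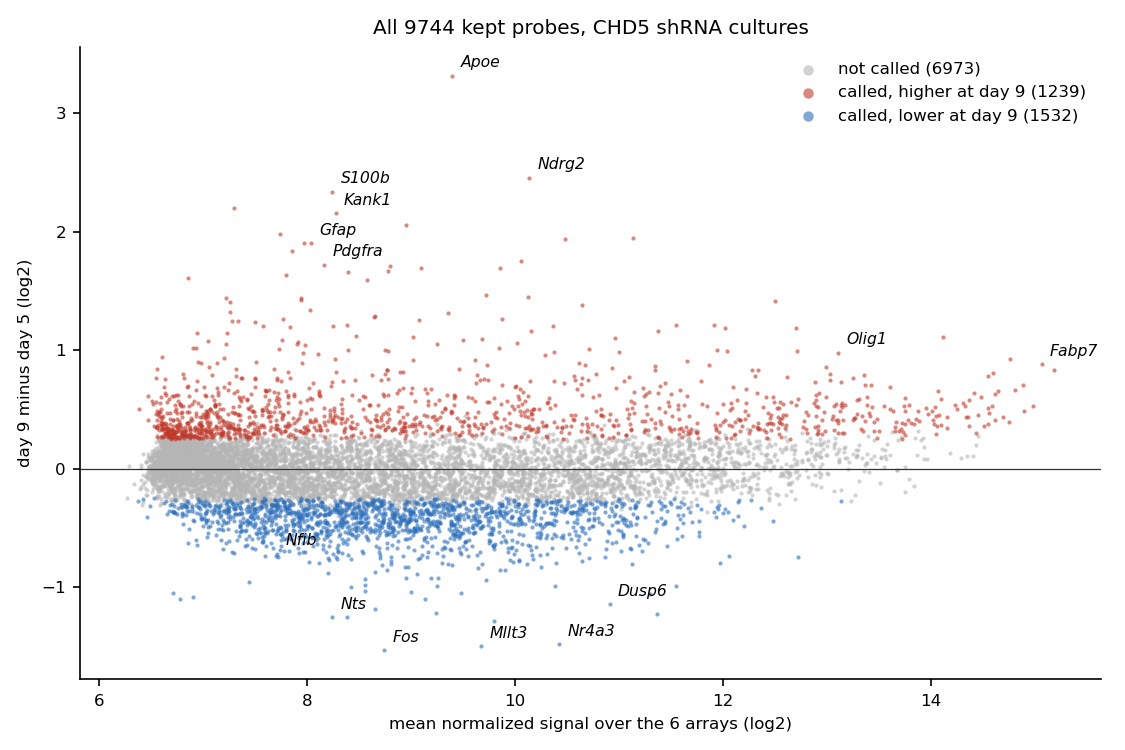
Mean normalized log2 signal over the 6 arrays (horizontal) against the day 9 minus day 5 difference (vertical) for the 9744 kept probes, with 1239 called probes higher at day 9 in red, 1532 lower in blue and the rest in grey. The largest rises include the glial genes Apoe (3.31) and S100b (2.34), the largest falls include Fos (-1.53) and Nr4a3 (-1.48), and the brightest probes on the right lie almost entirely above 0.

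The brightest probes need a caution that recurs below. The arrays were scaled to a common mean and spread, and the spread of the log2 signals was 1.83 to 1.91 at day 5 and 1.71 to 1.76 at day 9, so this scaling stretches the day 9 values. All 51 probes with a mean log2 signal of at least 14 were higher at day 9 on this scale, 45 of them called, with a median of 0.47. Under quantile normalization 30 of the 51 were higher with a median of 0.03, and under median centring 35 with a median of 0.06. Calls were therefore also counted under 4 scalings together (the main one, quantile normalization, median centring, and background correction with quantile normalization). Some genes below that brightness also rose more on the main scale than under the others. Olig1 rose by 0.98 against 0.67 to 0.77, and Gpi by 0.80 against 0.50 to 0.58. Atp5mc1 rose by 0.79 against 0.46 to 0.52, and Ndufb9 by 0.61 against 0.28 to 0.35. Counting 1 probe for each of 9492 genes, 1208 (12.7%) were called higher and 1502 (15.8%) lower, and 790 (8.32%) and 789 (8.31%) were called so under all 4. The counts in each gene list below are to be read beside these shares. The balance of higher and lower calls also moved with the scaling: 44.7% of called probes were higher in the main analysis and 55.3% of 3809 under median centring. The median difference over all genes was 0.01. Of 175 called genes followed through every setting, 122 were called under all 4 scalings and without each array in turn.

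Astrocyte genes gave the largest rises of the whole array. Of 22 astrocyte markers kept, 21 rose and none fell, with a median difference of 1.32, and 19 of them were called under all 4 scalings and also without each array in turn. Apoe, the lipid carrier that astrocytes secrete, had log2 signals of 7.67, 7.80 and 7.74 at day 5 and 11.29, 11.20 and 10.68 at day 9. This is a wide gap, a rise of 3.31 (SE 0.13, limma adjusted p = 2.80e-10) or 9.95-fold. Ndrg2, a cytoplasmic protein of differentiated astrocytes, stood at 8.95, 8.87 and 8.90 at day 5 and 11.58, 11.55 and 10.96 at day 9, and S100b, a calcium-binding protein, at 7.17, 6.97 and 7.08 at day 5 and 9.42, 9.52 and 9.29 at day 9. Both were higher in every day 9 array, by 2.45 (SE 0.13) and 2.34 (SE 0.0971), with limma adjusted p of 5.41e-09 and 3.41e-10.

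Gfap, the intermediate filament of astrocytes, was far less even. Its signals were 7.14, 7.002 and 7.11 at day 5 and 9.75, 8.82 and 8.38 at day 9. Day 9 replicate a was the highest and replicate c the lowest of the later arrays, yet none came near the day 5 values, and the rise was 1.90 (SE 0.22, limma adjusted p = 2.25e-05). Acsbg1, an acyl-CoA synthetase that is strongly astrocytic in brain, read 8.05, 7.995 and 7.72 at day 5 and 10.05, 10.08 and 9.79 at day 9, which is a rise of 2.06. Other genes of astrocytes moved with these: Aldoc, the brain aldolase, rose by 1.94, Slc1a3, a glutamate transporter, by 1.42, and Gja1, the gap junction protein connexin 43, by 1.21. The secreted proteins Clu, Cst3, Htra1 and Sparcl1 rose by 1.44, 1.19, 1.63 and 1.19.

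Some astrocyte markers were close to background. Aqp4, the water channel of astrocyte endfeet, was detected on none of the day 5 arrays, where it read 6.30, 6.32 and 6.49, and on all 3 at day 9, at 7.79, 7.58 and 7.19. Its mean was at least 1.86-fold higher at day 9. Such bounds set the brighter group's mean against the higher of the dim probe's own signal and the lowest signal detected on each array of the dim group. The transcription factor Sox9 was likewise undetected at day 5 and at least 1.26-fold higher. Slc1a2, the other main glutamate transporter, differed by 0.30 with a limma adjusted p of 0.0252, a call kept under 2 of the 4 scalings and lost without any of 4 arrays (0.26 to 0.33), and Slc4a4, a bicarbonate transporter, was not called at 0.06. Gjb6 was detected on no array. The unnormalized signals of the kept astrocyte markers summed to 43077 to 65357 per array at day 5 and 59840 to 75021 at day 9, so the ranges of this sum overlap while the array means fell.

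**Figure D2:**
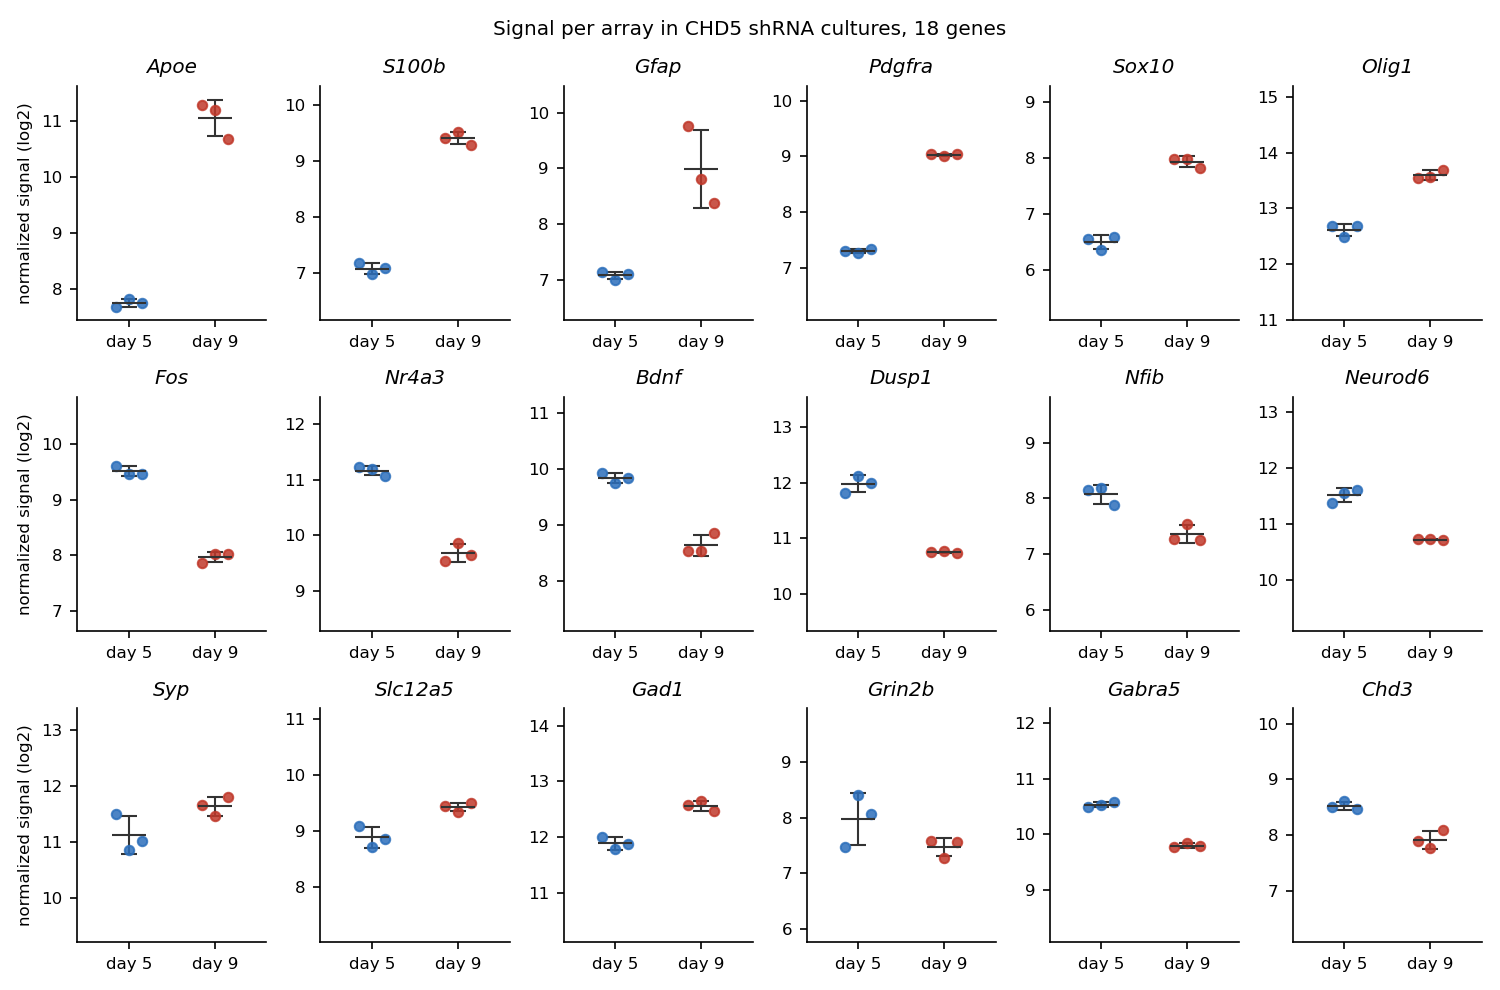
Normalized log2 signal of 18 genes on each of the 3 day 5 (blue) and 3 day 9 (red) arrays of CHD5 shRNA cultures, with the mean and SD as bars and the same log2 span in every panel. Glial genes stand higher at day 9 (top row), early-response and projection neuron genes lower (middle row), and in the bottom row Slc12a5 and Gad1 rise, Gabra5 and Chd3 fall, and Syp and Grin2b overlap between days.

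Genes of oligodendrocyte precursors rose as well. Of 9 kept markers of this lineage 7 rose and none fell, with a median of 0.89, and 6 were called under all 4 scalings. Pdgfra, the growth factor receptor that defines the precursors, was tightly grouped, with signals of 7.30, 7.27 and 7.34 at day 5 and 9.04, 9.002 and 9.05 at day 9. That is a rise of 1.72 (SE 0.0876, limma adjusted p = 3.05e-09). The transcription factor Sox10 was undetected on all day 5 arrays and detected on all day 9 arrays, with signals of 6.55, 6.35 and 6.59 at day 5 and 7.99, 7.99 and 7.83 at day 9, at least 2.48-fold higher. Olig1, a factor of the whole lineage, was already bright at day 5, and its signals of 12.68, 12.49 and 12.68 at day 5 and 13.54, 13.56 and 13.69 at day 9 rose by 0.98. Cspg4, the NG2 proteoglycan of precursors and pericytes, rose by 0.89 and Olig2 by 0.62.

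The later steps of this lineage were mixed. Cnp, an enzyme of myelinating cells that appears early, rose by 1.29, and Ugt8, which makes myelin galactolipids, by 0.38, a call lost under quantile normalization and without day 5 replicate b (0.31) or day 9 replicate b (0.26). Ermn was not called at 0.13, and Mbp, Mog, Mag, Cldn11 and Opalin were detected on none of the 6 arrays.

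Other non-neuronal cell types had few detectable markers. Of the 2 microglia and macrophage markers kept, 1 was called higher (0.34), though not under all 4 scalings, and Cd68 stood at 0.01 and was not called. Of the 2 endothelial and pericyte markers kept, 1 was called higher: Cspg4, shared with oligodendrocyte precursors (0.89). The other, Cldn5, the endothelial tight junction protein, differed by 0.05 and was not called. Of 7 kept fibroblast and meningeal markers 2 rose and 2 fell. The 2 that rose were Pdgfra, shared with oligodendrocyte precursors, and S100a4, which was detected on 1 array and called under 2 of the 4 scalings, while Lox, a collagen cross-linking enzyme, and Vim, an intermediate filament, fell. Their differences were -0.41 and -0.39, each lost without any of 3 arrays (-0.35 to -0.31 and -0.37 to -0.31).

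Immediate early genes, the fast targets of synaptic activity and calcium, stood lower at day 9. Of 18 kept genes of this list 15 fell and 2 rose, with a median of -0.74, and 13 falls and both rises were called under all 4 scalings. Fos, the leucine zipper factor that forms AP-1 with Jun proteins, read 9.61, 9.45 and 9.46 at day 5 and 7.87, 8.03 and 8.02 at day 9. No day 9 array came within 1 log2 unit of a day 5 array, and the fall was 1.53 (SE 0.0943, limma adjusted p = 2.51e-08). The nuclear receptor Nr4a3 had signals of 11.22, 11.19 and 11.07 at day 5 and 9.54, 9.86 and 9.64 at day 9, a fall of 1.48, and its relative Nr4a2 fell by 1.25.

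Signalling genes of the same list moved with them. Bdnf, the neurotrophin whose transcription follows activity, read 9.94, 9.76 and 9.84 at day 5 and 8.52, 8.52 and 8.85 at day 9, and Dusp1, a phosphatase that switches off MAP kinases, 11.82, 12.12 and 11.99 at day 5 and 10.75, 10.77 and 10.74 at day 9. For both, the groups were apart, with falls of 1.21 (SE 0.11, limma adjusted p = 8.87e-07) and 1.22 (SE 0.0973, limma adjusted p = 3.20e-07). Dusp6, the phosphatase of ERK, fell by 1.14, the clock gene Per1 by 0.92, the kinase Sik1 by 0.78, the CREB-family repressor Crem by 0.71 and the activin subunit Inhba by 0.64. Egr1 and Ier2 fell by 0.36 and 0.37, calls that were lost under 2 of the 4 scalings and without any of 2 arrays (-0.31 to -0.26 and -0.28 to -0.26). Against these, Nptx2, a pentraxin that gathers AMPA receptors, rose by 0.50, and Jun rose by 0.32, a call lost without any of 4 of the 6 arrays (0.20 to 0.34). Btg2 stood at 0.00. Fosb, Egr3, Egr4, Arc, Nr4a1 and Atf3 were detected on none of the 6 arrays.

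The promoters of this list were searched for the full cyclic AMP response element, the site of CREB, spelled TGACGTCA and the same on both strands. The windows ran from 250 bases before to 50 bases after the first listed start of each gene in RefSeq's GRCr8 assembly, and 15 of the 18 kept genes had one. The element was in 3 of the 15 windows (Dusp1, Ier2 and Btg2) and in 1.91% of all 27457 promoter windows. Of 13 genes with a window that fell, 2 held it. The 130 bases upstream of the start of each of those 2 are shown with the element in capitals, Dusp1 at chr10:17184723-17184852 on the plus strand and Ier2 at chr19:40399243-40399372 on the plus strand.
Dusp1: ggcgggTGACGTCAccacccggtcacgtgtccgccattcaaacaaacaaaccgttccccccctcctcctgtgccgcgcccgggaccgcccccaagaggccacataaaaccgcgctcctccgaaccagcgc
Ier2: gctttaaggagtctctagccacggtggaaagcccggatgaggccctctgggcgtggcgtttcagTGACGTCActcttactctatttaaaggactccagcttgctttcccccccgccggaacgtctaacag
The element begins 124 bases before the start in Dusp1 and 66 bases before it in Ier2. A match describes these letters only.

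Many transcription factors of cortical projection neurons fell. Of 20 kept members 10 fell and none rose, with a median of -0.33, and 7 of the falls were called under all 4 scalings. Neurod6, a basic helix-loop-helix factor of pyramidal neurons, read 11.38, 11.57 and 11.62 at day 5 and 10.73, 10.72 and 10.71 at day 9, nearly the same on the 3 arrays of day 9. The days were apart, with a fall of 0.80 (SE 0.0943, limma adjusted p = 2.54e-05). Nfib and Nfia, nuclear factor I proteins of neurons and glia, fell by 0.72 and 0.70, Fezf2, which specifies subcerebral neurons, by 0.63, Satb1 by 0.59 and Neurod2 by 0.43. The values of Emx1 (0.03), Lmo4 (0.09) and Emx2 (-0.09) lay near 0 and were not called. Among the other excitatory neuron markers, the transporter Slc17a6 stood at -0.09 and was not called, and Slc17a7 was detected on no array. The astrocyte markers moved the other way over the same arrays, as given above, and their part in these falls was not tested.

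Neurod-family factors bind an E-box spelled CAGATG, read here on both strands. It was in 3 of 15 promoter windows of this list (Neurod2, Neurod6 and Zbtb18) and in 16.3% of all windows. The 130 bases upstream of the start are shown for the 2 of these that fell, both on the minus strand, with the E-box in capitals: Neurod6 at chr4:86180156-86180285 and Neurod2 at chr10:83824278-83824407.
Neurod6: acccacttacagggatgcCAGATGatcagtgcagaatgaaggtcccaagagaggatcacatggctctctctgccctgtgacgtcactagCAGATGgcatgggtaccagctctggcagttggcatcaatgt
Neurod2: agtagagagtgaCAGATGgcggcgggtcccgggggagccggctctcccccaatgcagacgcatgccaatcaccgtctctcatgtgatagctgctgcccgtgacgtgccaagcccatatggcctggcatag
Neurod6 holds the E-box at 112 and 41 bases before its start, and its stretch also holds 1 copy of TGACGTCA, left in lower case. Neurod2 holds it at 118 bases before its start.

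**Figure D3:**
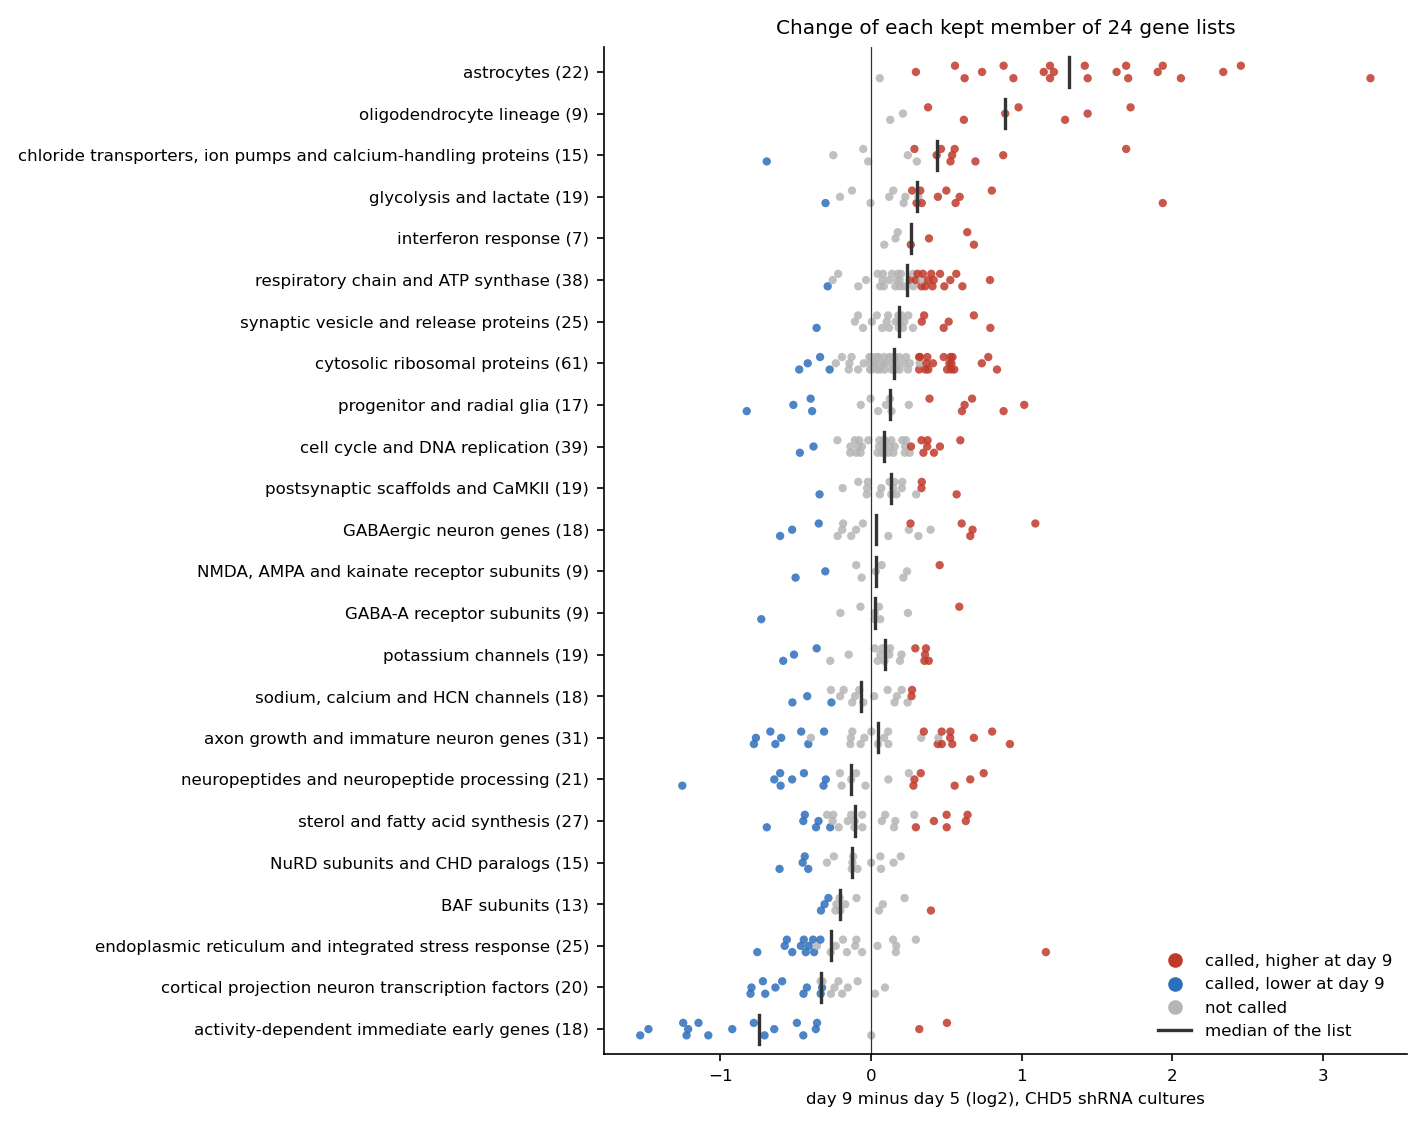
Day 9 minus day 5 difference on the log2 scale for each kept member of 24 gene lists in CHD5 shRNA cultures, one point per gene (red called higher, blue called lower, grey not called), with the median of each list as a bar and the number of kept members in brackets. The astrocyte list (median 1.32) and the oligodendrocyte list (0.89) lie to the right, the immediate early genes (-0.74) and projection neuron factors (-0.33) to the left, and the synaptic, receptor and channel lists centre near 0.

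A minority of synaptic genes rose. Of 25 kept synaptic vesicle and release genes 6 rose and 1 fell (median 0.18), and 4 rises were called under all 4 scalings. Napb, an NSF attachment protein of neurons, read 7.73, 8.86 and 8.08 at day 5 and 8.98, 9.07 and 8.99 at day 9. It rose by 0.79 (SE 0.19, limma adjusted p = 0.00571), with day 5 replicate b close below the day 9 arrays. The vesicle proteins Syngr3 and Syn2 rose by 0.68 and 0.48. Syp, the classic vesicle marker synaptophysin, read 11.50, 10.85 and 11.02 at day 5 and 11.66, 11.46 and 11.80 at day 9, so that day 5 replicate a lay above day 9 replicate b. Its difference of 0.52 passed the test (limma adjusted p = 0.012) but was lost under 1 scaling and without any of 3 arrays (0.37 to 0.46). Of the core release proteins, Snap25 (0.07), Vamp2 (0.04) and Syt1 (0.12) were not called. Syt4, a synaptotagmin that rises with activity, differed by -0.36, a call kept under 2 of the 4 scalings and lost without any of 4 arrays (-0.40 to -0.21).

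On the postsynaptic side 3 of 19 kept scaffold and kinase genes rose and 1 fell (median 0.13). These are 15.8% and 5.26% of the list, against 12.7% and 15.8% of all genes. Ppp1r1b, the dopamine-responsive phosphatase inhibitor DARPP-32, rose by 0.57. The difference of 0.34 in Baiap2, a scaffold of spines, was lost without any of 4 arrays (0.23 to 0.34). Camk2a, the kinase that marks maturing excitatory synapses, stood at 0.21 (limma adjusted p = 0.0952), the scaffold Dlg4 at 0.16 and Nrgn at 0.30, none of them called. Ppp3ca, a calcineurin subunit, and Homer2, a scaffold, differed by 0.34 and -0.34, and each lost its call under at least 2 scalings and without any of at least 2 arrays (0.32 for Ppp3ca, -0.34 to -0.24 for Homer2).

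The glutamate receptor switch that marks maturing cortex was only partly readable. Of 9 kept subunits and metabotropic receptors 1 rose and 2 fell (median 0.03), or 11.1% and 22.2% against 12.7% and 15.8% of all genes. The rise was called under all 4 scalings and without each array in turn, and neither fall was. Grin2b, the juvenile NMDA receptor subunit, read 7.47, 8.40 and 8.06 at day 5 and 7.58, 7.28 and 7.56 at day 9. Day 5 replicate a lay below 2 of the day 9 arrays, so the groups overlapped, and the difference of -0.50 (SE 0.17, limma adjusted p = 0.0365) was lost under 2 scalings and without any of 4 arrays (-0.55 to -0.28). Grin2a, its mature counterpart, was detected on no array, and Grin3a was not analysed here. Grik5, the other gene that fell (-0.30), was called under 2 of the 4 scalings, and its second, dimmer probe stood at 0.17 and was not called. Grin1, the obligate subunit, stood at 0.21, Gria2 at -0.06 and Grik2 at -0.10, none of them called.

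Of 9 kept inhibitory receptor subunits 1 rose and 1 fell, both under all 4 scalings. Each is 11.1% of the list, against 12.7% of all genes higher and 15.8% lower. Gabra5, the extrasynaptic alpha5 subunit that is high early in development, read 10.49, 10.53 and 10.58 at day 5 and 9.77, 9.85 and 9.79 at day 9, with each day closely grouped. It fell by 0.73 (SE 0.0887, limma adjusted p = 3.60e-05). Gabrd, the delta subunit of tonic inhibition, was undetected at day 5 and detected on all 3 arrays at day 9, at least 1.26-fold higher. Gabra2 (-0.07) was not called.

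Genes of chloride transport and ion pumping rose more often than they fell. Slc12a5, the KCC2 chloride exporter that makes GABA inhibitory, read 9.09, 8.72 and 8.86 at day 5 and 9.44, 9.35 and 9.498 at day 9. All day 9 arrays lay above all day 5 arrays, a rise of 0.54 (SE 0.10, limma adjusted p = 0.00147). Its counterpart importer Slc12a2 was not analysed here. Of 15 kept transporters, pumps and calcium-handling genes 9 rose and 1 fell (median 0.44), with 6 rises and the fall called under all 4 scalings. Atp1b2, a sodium pump beta subunit of astrocytes, rose by 0.69. Pcp4, a calmodulin regulator, rose by 0.88 and the calcium sensor Hpca by 0.46. Itpr1, the calcium release channel of the endoplasmic reticulum, fell by 0.69.

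Voltage-gated channels went both ways. Of 19 kept potassium channel genes 5 rose and 3 fell, 4 and 2 of them under all 4 scalings. Kcnq5, which carries the M-current, fell by 0.58 (limma adjusted p = 4.16e-04) and Kcnd3, an A-type channel, by 0.51 (0.00161). A second, much dimmer probe of Kcnq5 stood at 0.05 and was not called. The accessory subunits Kcnip1, of A-type channels, and Kcnab1, a beta subunit, rose by 0.38 and 0.35, while the accessory subunits Kcnip4 (-0.15) and Kcnmb4 (0.20) were not called. Of 18 kept sodium, calcium and HCN channel genes 2 rose and 3 fell, 1 and 1 under all 4 scalings. These are 11.1% and 16.7% of the list, close to the 12.7% and 15.8% of all genes. Scn3a, the embryonic sodium channel, fell by 0.52 (SE 0.0993, limma adjusted p = 0.00127), the fall that held under all 4 scalings. Cacna1g, of a calcium channel, and the regulatory subunit Cacng3 rose by 0.27 each, and each lost its call without any of 5 arrays (0.24 to 0.30 and 0.21 to 0.29). Scn2a and Cacnb4 differed by -0.26 and -0.42, and each lost its call under at least 1 scaling and without any of 5 arrays (-0.28 to -0.21) and 2 arrays (-0.37 to -0.26). Over the same arrays the astrocyte markers rose as given above, and their part in the synaptic, receptor and channel values was not tested.

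Genes of inhibitory neurons moved both ways. Of 18 kept GABAergic neuron genes 5 rose and 3 fell, 5 and 2 under all 4 scalings. Gad1, the main GABA-synthesizing enzyme, read 12.01, 11.79 and 11.87 at day 5 and 12.57, 12.65 and 12.47 at day 9. Its days did not overlap, a rise of 0.67 (SE 0.0962, limma adjusted p = 1.33e-04), or 0.43 to 0.56 under the other scalings. Slc32a1, which loads vesicles with GABA, rose by 0.60 and Vip, the peptide of a cortical interneuron class, by 0.66. Gad2 stood at 0.40 and was not called. The interneuron transcription factors Dlx1 (-0.18), Dlx5 (-0.05) and Lhx6 (-0.19) were not called, and the difference of -0.35 in Dlx2 was lost under 2 scalings and without any of 4 arrays (-0.36 to -0.25).

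Neuropeptides divided by gene. Of 21 kept peptide and processing genes 6 rose and 8 fell, 4 and 6 under all 4 scalings. Nts, neurotensin, read 9.01, 8.88 and 8.72 at day 5 and 7.62, 7.64 and 7.59 at day 9. It fell by 1.25 (SE 0.0973, limma adjusted p = 2.50e-07), with every day 9 array lower. Cartpt fell by 0.64, Crh, corticotropin-releasing hormone, by 0.60, Tac1, the substance P precursor, by 0.52 and Vgf, an activity-regulated granin, by 0.44. Pcsk1, a prohormone convertase, was detected on all day 5 arrays and none at day 9 and was at least 1.33-fold lower. In contrast Cpe, the carboxypeptidase that trims peptide precursors, rose by 0.75 and Pcsk1n, an inhibitor of Pcsk1, by 0.56. Sst (-0.13), Npy (0.12), Cck (0.25) and Penk (-0.10) were not called.

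Genes of axon growth and immature neurons moved both ways. Of 31 kept members of this list 10 rose and 8 fell, and 3 rises and 7 falls were called under all 4 scalings. Sox11, a transcription factor of immature neurons, read 10.26, 10.94 and 10.47 at day 5 and 9.69, 9.86 and 9.84 at day 9. It fell by 0.76 (SE 0.14, limma adjusted p = 7.83e-04), with every day 9 array lower. Its relative Sox4 fell by 0.46, the guidance receptors Epha4, Nrp1 and Epha5 by 0.67, 0.63 and 0.42, and the doublecortin-like kinase Dclk1 by 0.60. Dpysl3, a collapsin response mediator of growth cones, fell by 0.78, a call lost without day 9 replicate c (-0.70). Dcx, its better known neighbour in this role, was not analysed here.

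Of the 10 higher members 7 depended on the scaling. Tuba1a, the tubulin of growing neurites, read 14.28, 13.90 and 14.71 at day 5 and 15.01, 15.23 and 15.41 at day 9, a difference of 0.92 on the main scale, but 0.34 under quantile normalization, and the call held under 2 of the 4 scalings. Tubb2a (0.80) and Stmn2 (0.54) were called under 3 and 1 of them. Gap43, the growth cone protein, stood at 0.53 on the main scale, -0.13 under quantile normalization, 0.08 under median centring and -0.12 after background correction with quantile normalization, so no direction can be given. Nnat, an imprinted proteolipid of developing neurons, differed by 0.68 with overlapping days, and its call was lost without any of 3 arrays (0.46 to 0.64). A second, dimmer probe of Nnat differed by 0.75 and was called.

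Among 13 kept cytoskeletal genes of mature neurons 3 rose and 2 fell. Prph, peripherin, rose by 0.80 (SE 0.12, limma adjusted p = 2.58e-04). Nefl and Nefm, the light and medium neurofilament chains, differed by -0.11 and -0.08 and were not called, and the heavy chain Nefh was detected on no array. Ina, the neurofilament partner internexin, differed by 0.50, a call lost without any of 3 arrays (0.32 to 0.46). For Map1b, the microtubule protein of growing axons, the difference of -0.43 was lost without any of 5 arrays (-0.49 to -0.30). Of 13 kept neural adhesion genes 3 rose and 2 fell. Thy1, the membrane glycoprotein that appears on neurons as they mature, read 6.88, 6.91 and 6.85 at day 5 and 8.18, 8.06 and 8.10 at day 9. Every day 9 array was higher, a rise of 1.24 (SE 0.0888, limma adjusted p = 1.24e-07). Cdh13 rose by 0.61, and Cdh8, a cadherin of cortical neurons, fell by 0.67. Pan-neuronal markers as a whole moved little: 4 of 15 rose and 1 fell on the main scale, and 2 and 1 were called under all 4. Their unnormalized signals summed to 67442 to 83522 per array at day 5 and 53722 to 60744 at day 9. The mean signal of the whole array also fell between these days, so the lower sum is not particular to neuronal genes.

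Progenitor genes also divided. Of 17 kept genes 6 rose and 4 fell, 5 and 3 under all 4 scalings. Hes5, the Notch effector of radial glia, was undetected at day 5 and detected on all day 9 arrays, at least 1.76-fold higher. Sox2, a stem cell factor kept by astrocytes, rose by 0.60 and Mdk, a growth factor, by 0.67. The inhibitor of differentiation Id1 fell by 0.82 and Prom1 by 0.51, and Id2 fell by 0.40, a call lost without day 9 replicate c (-0.33). Fabp7, a fatty acid binding protein of radial glia and astrocytes, is one of the bright probes, and its difference of 0.88 was called under 2 of the 4 scalings. Nes (0.25), Pax6 (0.05) and Notch1 (0.13) were not called.

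Genes of dividing cells were detected at both days, and most were not called. Of 39 kept cell cycle genes 8 rose and 2 fell, 7 and 1 under all 4 scalings, with a median of 0.09. Among those that rose were Ccnb2, a mitotic cyclin, at 0.59 (SE 0.0984, limma adjusted p = 4.57e-04), Nusap1, of the spindle, at 0.46, Cdk1, the kinase that starts mitosis, at 0.42 and Cdc20, which triggers anaphase, at 0.38. The other 4 that rose were Aurka, a mitotic kinase, Tpx2, of the spindle, Racgap1, of cytokinesis, and Rrm1, of nucleotide synthesis, by 0.27 to 0.37, and each lost its call without at least 1 array (0.24 to 0.35). Bub1, a kinase of the mitotic checkpoint, fell by 0.38, a call lost under median centring and without any of 4 arrays (-0.35 to -0.29). Mcm4, a helicase of DNA replication, fell by 0.47, and its partners Mcm2 (0.16), Mcm5 (0.21) and Mcm6 (0.23) were not called. Mki67 stood at 0.09 and Pcna at -0.06, neither called, and Top2a was not analysed here. Of 30 promoter windows of this list 21 (70%) held CCAAT on either strand, against 37.7% of all windows, and 13 (43.3%) held the cell cycle homology region TTTGAA, against 18.1%. Both were searched over the whole list, whichever way its genes moved.

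Metabolic genes were higher on the main scale, in part with the bright probes. Of 19 kept glycolysis genes 10 rose and 1 fell (median 0.30), with 5 rises under all 4 scalings. Aldoc (1.94) was given with the astrocytes. Gpi, which isomerizes glucose phosphate, rose by 0.80 (SE 0.10, limma adjusted p = 4.85e-05). Of 38 kept respiratory chain and ATP synthase genes 16 rose and 1 fell (median 0.24), but only 3 rises held under all 4 scalings, and under quantile normalization 5 were higher and 4 lower. Atp5mc1, a membrane subunit of ATP synthase, and Ndufb9, of complex I, rose by 0.79 and 0.61. Of 61 kept ribosomal protein genes 19 were called higher and 4 lower on the main scale (median 0.15), 7 and 8 under quantile normalization and 3 and 12 under median centring, so the list has no direction that holds across scalings. Rpl5, of the large subunit, fell by 0.48. Of 29 kept proteasome genes 6 rose and 2 fell, 1 and 0 under all 4 scalings. On the main scale that is 20.7% and 6.9%, against 12.7% and 15.8% of all genes.

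Many genes of the endoplasmic reticulum and integrated stress responses fell. Of 25 kept members 11 fell and 1 rose (median -0.27), with 8 falls and the rise under all 4 scalings. Dnajb9, a chaperone of the reticulum, fell by 0.75 (SE 0.13, limma adjusted p = 6.38e-04), Asns, the asparagine synthetase induced by ATF4, by 0.57, Creld2 by 0.56 and Dnajc3 by 0.52. Atf4 itself differed by -0.38, a call lost under 1 scaling and without day 9 replicate a or b (-0.35 for both). Hspa5 (-0.06), Ddit3 (0.04) and Trib3 (-0.10) were not called. The gene that rose, Phgdh, the first enzyme of serine synthesis (1.16), is also strongly expressed by astrocytes. Sterol and fatty acid genes divided, with 6 of 27 higher and 6 lower, 4 and 3 under all 4 scalings. The desaturases Scd and Fads1 rose by 0.64 and 0.50, and the sterol enzymes Idi1, Hsd17b7 and Sc5d fell by 0.69, 0.45 and 0.44. Hmgcs1, which makes the substrate of the mevalonate pathway (0.63), was called under 1 scaling. The sterol element TCACNCCAC, read on both strands, was in 0 of the 19 promoter windows of this list and in 1.13% of all.

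Most interferon genes were not detected: 15 of the genes on this list that have a probe were detected on no array. Of 7 kept genes 4 rose, 3 under all 4 scalings: B2m, the light chain of class I molecules, by 0.68, the factor Irf1 by 0.64, Ifi27 by 0.39 and the peptide transporter Tap1 by 0.26. The calls of Ifi27 and Tap1 were lost without any of 3 (0.28 to 0.38) and 5 (0.19 to 0.29) arrays. A second, slightly dimmer probe of Ifi27 differed by 0.58 and was called. Matrix genes moved both ways, with 6 of 22 higher and 5 lower. Sparc, a matrix glycoprotein of glia and vessels, rose by 1.003 (SE 0.17, limma adjusted p = 4.79e-04) and the protease inhibitor Timp1 by 0.59, while the proteoglycan Vcan and the collagen chain Col5a2 fell by 0.52 and 0.47.

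Most relatives and partners of CHD5 were not called. Chd3, the closest NuRD helicase together with Chd4, read 8.51, 8.61 and 8.46 at day 5 and 7.89, 7.77 and 8.10 at day 9. Each day 9 array was below each day 5 array, a fall of 0.61 (SE 0.10, limma adjusted p = 4.80e-04). Chd4 stood at -0.09 (limma adjusted p = 0.607). Of 15 kept NuRD and CHD genes 4 fell and none rose (median -0.12), with 3 falls under all 4 scalings. Besides Chd3 these were Mta1 and Gatad2b, subunits of NuRD, at -0.45 and -0.42, and Hdac2, its deacetylase, at -0.44, a call kept under 2 scalings and lost without day 9 replicate c (-0.30). Hdac1 (-0.12), Mta3 (0.15), Mbd3 (-0.12) and Rbbp7 (-0.13) were not called.

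In the BAF remodelling complex neurons exchange the subunit Actl6a for Actl6b as they leave the cell cycle. Both differed downward by nearly the same amount, -0.33 and -0.31 (limma adjusted p = 0.0161 and 0.0237), and both calls were lost under 2 scalings and without any of 3 arrays (-0.34 to -0.33 and -0.32 to -0.25). The neuronal subunit Dpf1, also called Baf45b, stood at -0.17 and was not called. Smarcd3 rose by 0.40. Over the 13 kept BAF genes 1 rose and 3 fell, and under all 4 scalings 1 rose and 0 fell.

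Some of the largest changes were in genes outside the lists. Pnlip, a lipase known from pancreas, was undetected at day 5 and read 8.18, 8.96 and 8.05 at day 9, at least 3.42-fold higher. Kank1, an adaptor of focal adhesions, read 7.20, 7.23 and 7.17 at day 5 and 9.19, 9.67 and 9.20 at day 9, a rise of 2.16 with the days far apart. Pmel, an amyloid-forming protein known from pigment cells, rose by 1.98 and Asrgl1, an asparaginase, by 1.95. Of the falls, Mllt3, a subunit of the transcription elongation machinery, read 10.23, 10.72 and 10.32 at day 5 and 8.95, 8.97 and 8.86 at day 9, all day 9 arrays lower, a fall of 1.49 (SE 0.12, limma adjusted p = 2.58e-07). Igfbpl1 fell by 1.28 and Cyp26b1, which degrades retinoic acid, by 1.19.

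The study followed up 30 genes as candidate targets of CHD5. It chose them on samples that include these, so their count is not independent evidence of anything about CHD5. All 30 were kept, and 8 were called higher and 7 lower at day 9 in depleted cultures (median -0.09). Over all genes 12.7% were called higher and 15.8% lower. The higher ones were Apoe, Ndrg2, Gfap, Vip, Gabrd, Fgfr3, Add3 and Ampd3. The lower ones were Fos, Nfia, Satb1, Kmt5c, Id2, Actl6b and Fmr1. Of these, Actl6b, Id2, Fmr1 (-0.29) and Add3 (0.47) lost the call without at least 1 array, Fmr1 without any of 5 (-0.34 to -0.21) and Add3 without day 9 replicate b (0.37). App (0.15) and Ddit4 (-0.10) were not called.

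The same interval was measured in control cultures, on other arrays. Of the 2771 probes called in depleted cultures, 2651 (95.7%) differed in the same direction in the controls, against 78.8% of all kept probes. Without control day 9 replicate b the count was 2526 (91.2%), against 73.5% of all kept probes. In the controls 944 of them were also called in the same direction and 1 in the opposite direction, or 1053 and 3 without that array. When the 12 arrays were fitted together, with a variance shared by both kinds of culture, 399 of 10985 probes (3.63%) were called for the depleted cultures and 1382 (12.6%) for the controls. The difference between the 2 changes was called for 0 probes (0%) by limma, with 465 at an unadjusted p under 0.05. Without control day 9 replicate b, 1990 probes were called for the depleted cultures, 1703 for the controls, and the difference for 4 of 10794 (0.0371%), with 1066 at an unadjusted p under 0.05.

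Of those 4, the rise was smaller in depleted cultures in 3 and the fall was smaller in 1. Agt, angiotensinogen, an astrocyte product, differed by 0.89 and 2.08 (difference -1.19, limma adjusted p = 0.042). Bhlhe41, a clock-related repressor, differed by 0.65 and 1.48 (-0.83, limma adjusted p = 0.048). Fos differed by -1.56 and -2.46 (0.90, limma adjusted p = 0.042). With all 12 arrays these differences had a limma adjusted p of 0.991.

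By list, the change in controls was the larger for most astrocyte and immediate early genes, while the tests of single differences mostly did not pass. The astrocyte median was 1.30 in depleted and 2.09 in control cultures (1.34 and 1.92 without control day 9 replicate b), and the control value was the higher for 21 of 22 genes (18 of 22 without that array). Differences at an unadjusted p under 0.05 numbered 11 of 22 in both fits, and the smallest adjusted p was 0.991 with the array and 0.073 without it. For the oligodendrocyte lineage the medians were 0.85 and 1.09, but 0.88 and 0.71 without that array, with the control value the higher for 7 of 9 genes (5 of 9). The immediate early gene median was -0.73 in depleted and -1.05 in control cultures (-0.76 and -0.95), with the control value the lower for 15 of 18 genes (16 of 18). For the projection neuron factors the medians were -0.33 and -0.59 (-0.34 and -0.49), with 16 of 20 lower in controls either way. For synaptic vesicle genes they were 0.17 and 0.01 (0.18 and -0.11), with the control value the lower for 17 of 25 (20 of 25). When arrays were weighted by limma's array weights, 429 differences (3.91%) were called. Among them were 10 of 22 astrocyte genes, with Apoe at -0.94, Ndrg2 at -0.87 and Aqp4 at -0.73. They also included 5 of 18 immediate early genes, with Fos at 0.87 and Nr4a3 at 0.79. The 3 of 9 oligodendrocyte lineage genes called went both ways, with Cspg4 at 0.55 and Cnp at -0.68. The unweighted fit of all 12 arrays called no difference, so none could pass in every fit. Fos, Agt and Bhlhe41 were called both without control day 9 replicate b and with array weights.

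**Figure D4:**
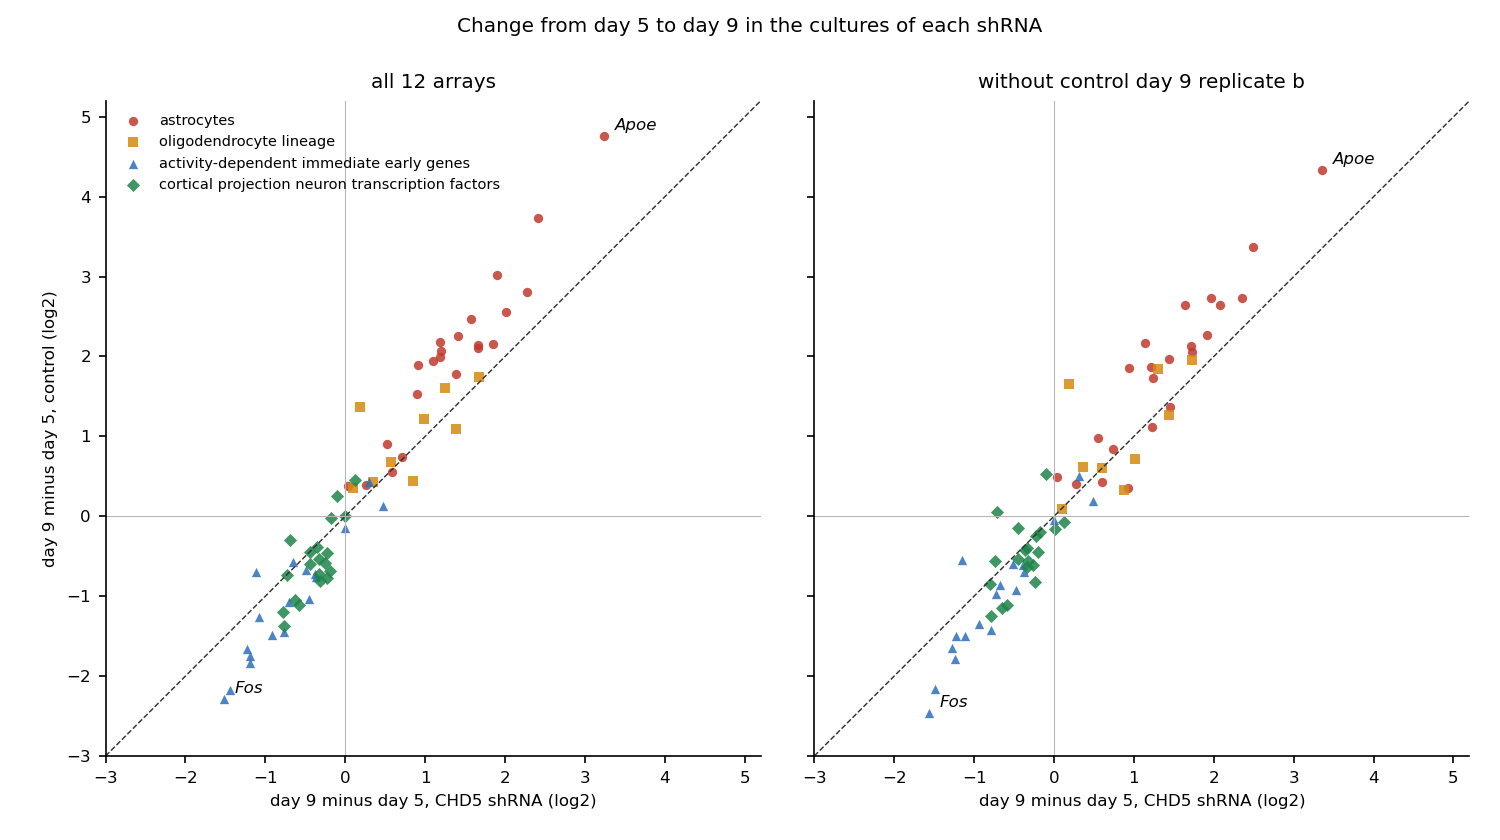
Day 9 minus day 5 difference in CHD5 shRNA cultures (horizontal, log2) against the same difference in control cultures (vertical, log2) for the kept members of 4 lists, from the fit of 12 arrays (left) and without control day 9 replicate b (right), with the dashed line marking equal change. Astrocyte genes lie mostly above the line (21 of 22 left, 18 of 22 right), and most immediate early genes below it (15 of 18 and 16 of 18).

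From day 9 to day 12 the averages of depleted cultures moved on for some genes and not for others. On the scale of all 18 arrays Apoe averaged 7.73, 10.98 and 12.24 at days 5, 9 and 12 in depleted cultures and 8.02, 12.79 and 13.22 in controls, with 12.22 at day 9 without control day 9 replicate b. Slc12a5 averaged 8.85, 9.37 and 9.99 in depleted cultures and 8.67, 8.69 and 9.44 in controls, where the day 9 average was 8.97 without that array. The average of Slc12a5 was the higher in depleted cultures on each day, with the array or without it. Neurod6 stood at 11.43, 10.65 and 10.66 in depleted cultures and Sox10 at 6.51, 7.90 and 7.66. There these went no further in the direction they had taken by day 9. In controls Neurod6 averaged 11.44, 10.24 and 10.74 and Sox10 6.54, 7.62 and 7.79. Without control day 9 replicate b their day 9 averages were 10.62 and 7.77. These averages are given as a description, and the day 12 arrays were not tested here.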

How the data were processed

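Gene expression was measured on 18 Illumina RatRef-12 arrays, 3 for each shRNA and day. The deposited tables hold, for each probe, the average signal intensity and a detection p-value as the authors exported them from GenomeStudio (gene expression module 1.1.1, per the file headers), without normalization. From these the log2 signal of each array was standardized to mean 0 and SD 1, as in the study's Z method, and returned to the mean spread of the arrays. A probe was kept where 1 or more of the 6 arrays detected it (detection p-value no higher than 0.02), and day 9 was compared with day 5 with limma 3.58.1 in R 4.3.3 (lmFit, eBayes, Benjamini-Hochberg adjustment). The difference between shRNAs was the interaction in a fit of 12 arrays. No depth is defined for arrays, and 3 arrays per group limit the precision. The fit was tested on simulated data. Replicate a was also deposited as a second run at days 5 and 9, which correlated with the first at 0.998 and 0.997. The first run was used.

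Named genes were the 10 largest rises and falls, up to 4 called members of each gene list per direction, and genes fixed by name, and further list members were named after their values were seen. Of several probes the brightest was taken. The members and lists were chosen with earlier results of these data known. Of the kept probes 8808 were matched to a current RefSeq symbol. Letters a to c were not used to pair the arrays, as the labels do not say that they do. The deviations of same-lettered arrays correlated at -0.05, 0.09 and 0.25. Alternatives covered scaling, detection filter, probes per gene, array weights, a replicate block, leaving out each array, second runs, more arrays in the fit and the study's own criteria. Some genes are not reported here.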

Additional observations from a re-analysis of the deposited data

How the results depend on the processing

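The 2771 calls for day 9 against day 5 in depleted cultures became 2330 to 3809 under quantile normalization, median centring, or background correction with quantile normalization, and stayed within 1.5 times under 2 other detection filters, 1 probe per symbol, array weights, second runs and the fit of 9 depleted arrays. A fold change of at least 1.5 left 530, fitting 18 arrays together 1034, fitting 12 arrays 399, and the study's 4 criteria 1004. Leaving out each array gave 1794 (without day 9 replicate c) to 3007. The difference between shRNAs, called for 0 probes, was called for 1 after background correction with quantile normalization, 429 with array weights and 0 to 4 on leaving out each array (4 without control day 9 replicate b). The 1382 calls of the control change became 498 under median centring, 821 with no detection filter, 796 with a fold change of at least 1.5, 4542 with array weights and 718 to 3201 on leaving out each array, with 818 and 718 without control day 5 replicates a and b and 3201 without control day 9 replicate a. A replicate block by letter gave 3001, 0 and 1494 calls in the 3 comparisons, and the labels do not say that the letters pair the arrays. The sign turned for Slc4a4 with no detection filter (-0.026) and on leaving out single arrays (-0.067, without day 9 replicate b, to 0.17, and below 0 without day 5 replicate c), for Npy under median centring (-0.067), for Gap43 under quantile normalization (-0.13) and after background correction with quantile normalization (-0.12), and for Chd4 on leaving out single arrays (-0.25 to 0.0062, the latter without day 5 replicate c). The cause of these shifts was not tested.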

Other observations

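Genes of the oligodendrocyte lineage beyond the marker list, chosen after their values were seen, were also higher at day 9 in depleted cultures. Nkx2-2, a transcription factor of precursors entering differentiation, rose by 1.90 (limma adjusted p = 2.71e-09), and Bcas1, which marks cells starting to myelinate, by 1.75 (1.84e-07). Enpp2, the secreted autotaxin, rose by 1.59 and Sox8, a relative of Sox10, by 1.32. Among called falls outside the lists, Nfil3, a leucine zipper repressor, fell by 1.05 (limma adjusted p = 6.84e-07).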
